A study of Mus musculus with 18 samples.

Results

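Cell cycle and DNA replication genes were followed as a set of 45 members in bulk RNA from mouse melanoma. They were chosen by name as textbook genes of the cell division programme, 19 whose expression peaks at the G1/S transition and 26 whose expression peaks in G2 and mitosis (G2/M), and were found by matching their Ensembl IDs. All 45 were among the 37620 gene IDs of the count files, and all 45 were among the 14849 genes that passed the low-count filter and were tested. C57BL/6 mice had received MO4 cells, a B16F10 melanoma line expressing ovalbumin, subcutaneously in each hindlimb on day 0 (100000 cells in each). The 6 groups of 3 libraries each were sequenced from tumours taken on day 11. The control right and control left tumours came from mice that received no cells. The pMC right and pMC left tumours came from mice given iPSC-pMCs (here pMC), cells made from induced pluripotent stem cells, at 1000000 cells around the right-hand tumour on each of days 5, 6 and 7. The IFN-alpha-pMC right and left tumours came from mice given iPSC-pMCs that carry the name IFN-α, on the same days, at the same dose and on the same side. All groups shared the strain, the tumour line and the inoculation of both hindlimbs, and the left tumour was in each case the one that was not injected. The age of the mice and the number of mice behind a library are not given in the labels, which do not say that libraries of a group came from separate animals. The p-values therefore measure the spread between these libraries, which may be technical.

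A cell that commits to division passes the G1/S transition, where E2F factors switch on the genes that license replication origins, unwind DNA and supply nucleotides. A later wave, switched on by the MuvB complex with B-Myb and FoxM1, makes the cyclins, kinases, motors and kinetochore proteins that carry the cell through G2 and mitosis. Tumour pathologists count dividing cells by the Ki-67 protein, the product of Mki67, and B16-derived melanoma is known as a fast-growing transplantable tumour. In bulk tumour RNA, fewer dividing cells and less RNA per dividing cell cannot be told apart.

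The promoters of the G1/S and the G2/M members differed in the letters they carry. Windows of 300 bases around the annotated start, 250 before and 50 after it, were read from RefSeq on GRCm38.p6 and were found for 37 of the 45 members. The missing windows were those of Tpx2, Foxm1, Aurkb, Gins2, Mcm4, Ccne2, Kif20a and Ccna2. Each motif was searched on both strands. TTTGAA, the core of the cell cycle genes homology region (CHR) bound by MuvB, was in 76.2% of the G2/M windows (16 of 21), in 6.25% of the G1/S windows (1 of 16) and in 18.1% of all 27025 gene windows. TTTNNCGC, a form of the E2F site, was in 50% of the G1/S windows (8 of 16), in 4.76% of the G2/M windows (1 of 21) and in 5.27% of all. CCAAT, the letters read by NF-Y, was in 85.7% of the G2/M windows, 62.5% of the G1/S windows and 37.9% of all. TTTAAA, another form of the CHR, was in 33.3%, 18.8% and 13.2% in the same order. These shares describe letters in a window, and no binding was measured here. The windows of Mcm5 on the G1/S side and of Top2a and Cdk1 on the G2/M side held the most motif matches of their class, and they are printed with that of Mcm3, which tied with Mcm6 and Mcm7 for the next most G1/S matches, 5′ to 3′ along the gene, with Mki67, the member with the lowest fold change on both sides. Capitals mark matches to any of the 4 motifs on either strand. A match on the other strand appears as its reverse complement (ATTGG for CCAAT), and matches that overlap run together.
Mcm5: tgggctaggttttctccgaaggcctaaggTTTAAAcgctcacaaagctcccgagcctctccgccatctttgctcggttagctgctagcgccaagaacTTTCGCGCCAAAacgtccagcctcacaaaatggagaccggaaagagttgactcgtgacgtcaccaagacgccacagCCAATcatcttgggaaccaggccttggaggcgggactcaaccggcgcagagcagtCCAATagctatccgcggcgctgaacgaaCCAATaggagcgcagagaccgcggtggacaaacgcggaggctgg
Mcm3: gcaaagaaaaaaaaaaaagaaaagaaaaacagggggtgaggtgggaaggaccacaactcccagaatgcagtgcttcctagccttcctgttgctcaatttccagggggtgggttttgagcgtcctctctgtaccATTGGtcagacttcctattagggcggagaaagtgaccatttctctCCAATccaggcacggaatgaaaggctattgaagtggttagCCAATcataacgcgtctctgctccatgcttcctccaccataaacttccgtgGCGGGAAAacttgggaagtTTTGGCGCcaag
Top2a: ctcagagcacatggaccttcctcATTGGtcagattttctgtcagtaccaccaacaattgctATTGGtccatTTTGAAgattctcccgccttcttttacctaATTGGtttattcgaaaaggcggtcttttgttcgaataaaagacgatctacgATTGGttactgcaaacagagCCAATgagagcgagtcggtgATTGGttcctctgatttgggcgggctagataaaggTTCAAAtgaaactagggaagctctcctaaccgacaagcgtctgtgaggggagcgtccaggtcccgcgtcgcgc
Cdk1: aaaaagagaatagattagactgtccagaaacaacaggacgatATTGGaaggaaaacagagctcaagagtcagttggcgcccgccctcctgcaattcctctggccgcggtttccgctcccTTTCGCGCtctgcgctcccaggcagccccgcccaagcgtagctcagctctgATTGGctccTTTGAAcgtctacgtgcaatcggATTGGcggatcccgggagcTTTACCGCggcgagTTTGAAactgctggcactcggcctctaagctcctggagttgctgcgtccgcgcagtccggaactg
Mki67: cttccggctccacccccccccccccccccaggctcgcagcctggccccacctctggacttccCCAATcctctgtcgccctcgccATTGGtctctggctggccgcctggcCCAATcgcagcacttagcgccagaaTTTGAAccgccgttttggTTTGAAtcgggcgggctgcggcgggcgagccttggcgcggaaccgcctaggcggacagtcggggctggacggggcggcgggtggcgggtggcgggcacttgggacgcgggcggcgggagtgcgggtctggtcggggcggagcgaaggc
The Mcm5 window is chr8:75109259-75109558 (plus strand), that of Mcm3 is chr1:20820263-20820562 (minus strand), that of Top2a is chr11:99024140-99024439 (minus strand), that of Cdk1 is chr10:69352863-69353162 (minus strand) and that of Mki67 is chr7:135716330-135716629 (minus strand). Each spans the annotated transcription start of its gene. Mcm5 and Mcm3, subunits of the replicative helicase, held 2 E2F matches each and no TTTGAA. Top2a, which untangles DNA strands, held 2 TTTGAA and 6 CCAAT matches. Cdk1, the kinase that drives entry into mitosis, was the G2/M member with an E2F match, and it held 2 of them beside 2 TTTGAA. Mki67 held 2 TTTGAA and 3 CCAAT matches.

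In units of 1000000 counts, the libraries held 14.35 to 23.43 (median 18.85), and no member had fewer than 113 counts in a library. Melanocyte markers summed to 35600 to 49830 CPM over the 18 libraries, and all 10 markers of that list had counts in every library, so the labelled tissue was present throughout. Here CPM is the count per 1000000 counts after trimmed-mean scaling, over all gene IDs for the summed markers and over the tested genes elsewhere. Summed markers of some other cell types moved with the IFN-alpha-pMC groups. The 10 T cell markers summed to 161 to 212 CPM in IFN-alpha-pMC right and 46 to 59.7 in IFN-alpha-pMC left, against 14.2 to 36 in the other 4 groups. The 12 skeletal muscle markers summed to 1891 to 3821 CPM in IFN-alpha-pMC right, 686 to 1289 in IFN-alpha-pMC left and 8.31 to 1033 elsewhere. The 6 pan-leukocyte markers summed to 919 to 1022 CPM, 450 to 484 CPM and 193 to 364 CPM in the same order. Monocyte and macrophage markers summed to 1516 to 1702 CPM in IFN-alpha-pMC right. In IFN-alpha-pMC left their sums (1080 to 1628 CPM) overlapped those of control right (552.5 to 1424 CPM). Erythroid, endothelial and fibroblast sums of both IFN-alpha-pMC groups overlapped those of control right. Apart from fits with a muscle covariate, given as an alternative, the part of these cells in the results below was not tested.

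The libraries also differed in how they represented long transcripts, and 3 of them stood apart from their groups. The Spearman correlation between a gene's deviation in a library and the length of its longest coding transcript, over all genes, was 0.35 and 0.57 in control right 1 and 2 but -0.51 in control right 3. It was -0.30 and -0.42 in IFN-alpha-pMC right 1 and 2 but 0.40 in IFN-alpha-pMC right 3. In the IFN-alpha-pMC left group it was -0.48 in library 1 and -0.18 and -0.05 in the other two. The control left libraries lay at 0.29 to 0.40, pMC left at 0.03 to 0.31 and pMC right at -0.16 to 0.05. Results below are therefore given with and without control right 3, IFN-alpha-pMC right 3 and IFN-alpha-pMC left 1, and with and without a correction for the length and GC content of transcripts. The 3 libraries were singled out with these data known, and leaving them out leaves 2 libraries in each of their groups.

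The members' levels spanned a wide range. Per kilobase of transcript, and averaged over the 18 libraries, the highest was Pcna, the sliding clamp of DNA polymerases, at 208 CPM per kb. Rrm2 (105 CPM per kb) and Rrm1 (74.4 CPM per kb), the subunits of ribonucleotide reductase, Ccnb2, a mitotic cyclin (78 CPM per kb), and Mcm2 of the helicase (71.9 CPM per kb) followed. The lowest were Cenpf, a kinetochore protein, at 3.47 CPM per kb, Mybl2, which encodes B-Myb, at 4.42 CPM per kb, and Cdc6, which loads the helicase, at 5.30 CPM per kb. All 45 together took 0.39 to 0.59% of a library's counts. The members' mean log2 CPM lay between 6.12 and 6.59 in every library, and the 3 IFN-alpha-pMC right libraries (6.12 to 6.22) lay below every other library (6.23 to 6.59). The gap was narrow, from 6.222 in IFN-alpha-pMC right 3 to 6.233 in control left 3, without the length and GC correction. By share of counts the groups overlapped. IFN-alpha-pMC right 3 held 0.468%, above control left 2 (0.449%), and IFN-alpha-pMC left 1 (0.400%) lay under IFN-alpha-pMC right 1 (0.407%).

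The members differed in how steady they were. The highest library over the lowest gave a ratio of 6.29 for Ccne2, a G1/S cyclin, 5.79 for Mki67, 5.70 for Gins2, a helicase cofactor, 4.77 for Cenpa, the centromeric histone, and 4.21 for Tyms, which makes thymidylate. The same ratio was 1.47 for Aurkb, the kinase of the chromosomal passenger complex, 1.53 for Cdc20, the activator of the anaphase-promoting complex, and 1.54 for Mcm7. In the plot of all members by library these steady genes are the pale rows.

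**Figure D1:**
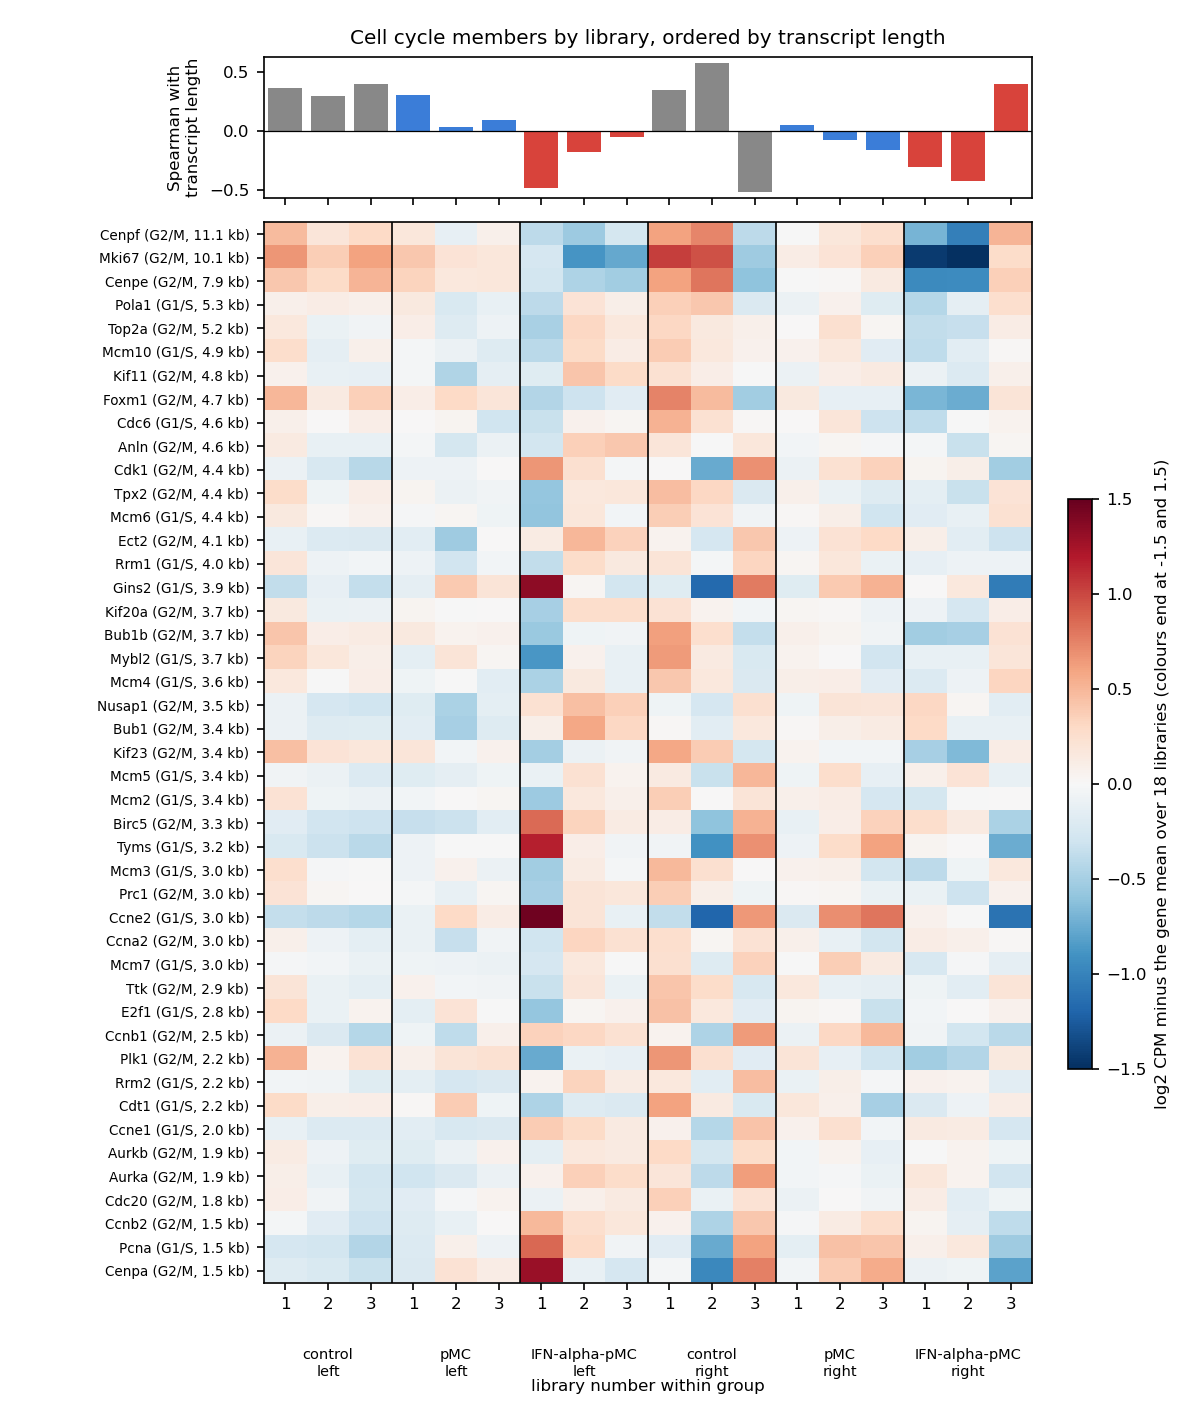
Heat map of the 45 members (rows, longest transcript at the top, with phase and length in kb) in the 18 libraries (columns), as log2 CPM minus the gene's mean over the 18 libraries; the bars above give each library's Spearman correlation with transcript length over all genes. Cenpf, Mki67 and Cenpe at the top and Cenpa and Pcna at the bottom take opposite colours in control right 2 and control right 3, and the longest 3 change sign between IFN-alpha-pMC right 2 and 3.

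Opposed patterns ran through the set. Over the 18 libraries the levels most alike to Mki67 were those of Cenpe, a kinetochore motor (Spearman 0.95), Cenpf (0.94), Kif23, a motor of the midbody (0.91), Bub1b, a checkpoint kinase (0.89), Foxm1, the G2/M transcription factor (0.87), and Plk1, a mitotic kinase (0.75). The most opposed were Nusap1, which bundles spindle microtubules (-0.68), Pcna (-0.67), Ccne1, the other cyclin E (-0.64), Birc5, the passenger protein survivin (-0.63), and Tyms (-0.62). The correlations describe 18 libraries that share groups and the length trend above, so they carry no test. Cenpf, Mki67 and Cenpe have the longest transcripts of the set (11130, 10061 and 7910 bases). Cenpa, Pcna and Ccnb2 have the shortest (1466, 1518 and 1531 bases). As the mean of log2 CPM minus each gene's own mean over the 18 libraries, the longest 3 lay at 0.83 in control right 2 and -1.15 in IFN-alpha-pMC right 2. Genes of 1 phase stood at both ends, since Cenpf and Ccnb2 are both G2/M genes.

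Mki67 was the member that varied most between groups. Its CPM was 420, 397 and 141 in control right 1, 2 and 3, and 324, 264 and 310 in control left. It was 221, 236 and 261 in pMC right and 270, 236 and 229 in pMC left. In IFN-alpha-pMC right it was 75.5, 72.7 and 247, and in IFN-alpha-pMC left 171, 111 and 120. On the left, all 3 IFN-alpha-pMC libraries lay under all control and pMC libraries. On the right, the groups overlapped because control right 3 (141) lay under IFN-alpha-pMC right 3 (247). Group means were 319 ± 155 (SD, n = 3) in control right, 132 ± 100 in IFN-alpha-pMC right, 299 ± 31.1 in control left and 134 ± 32.5 in IFN-alpha-pMC left.

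**Figure D2:**
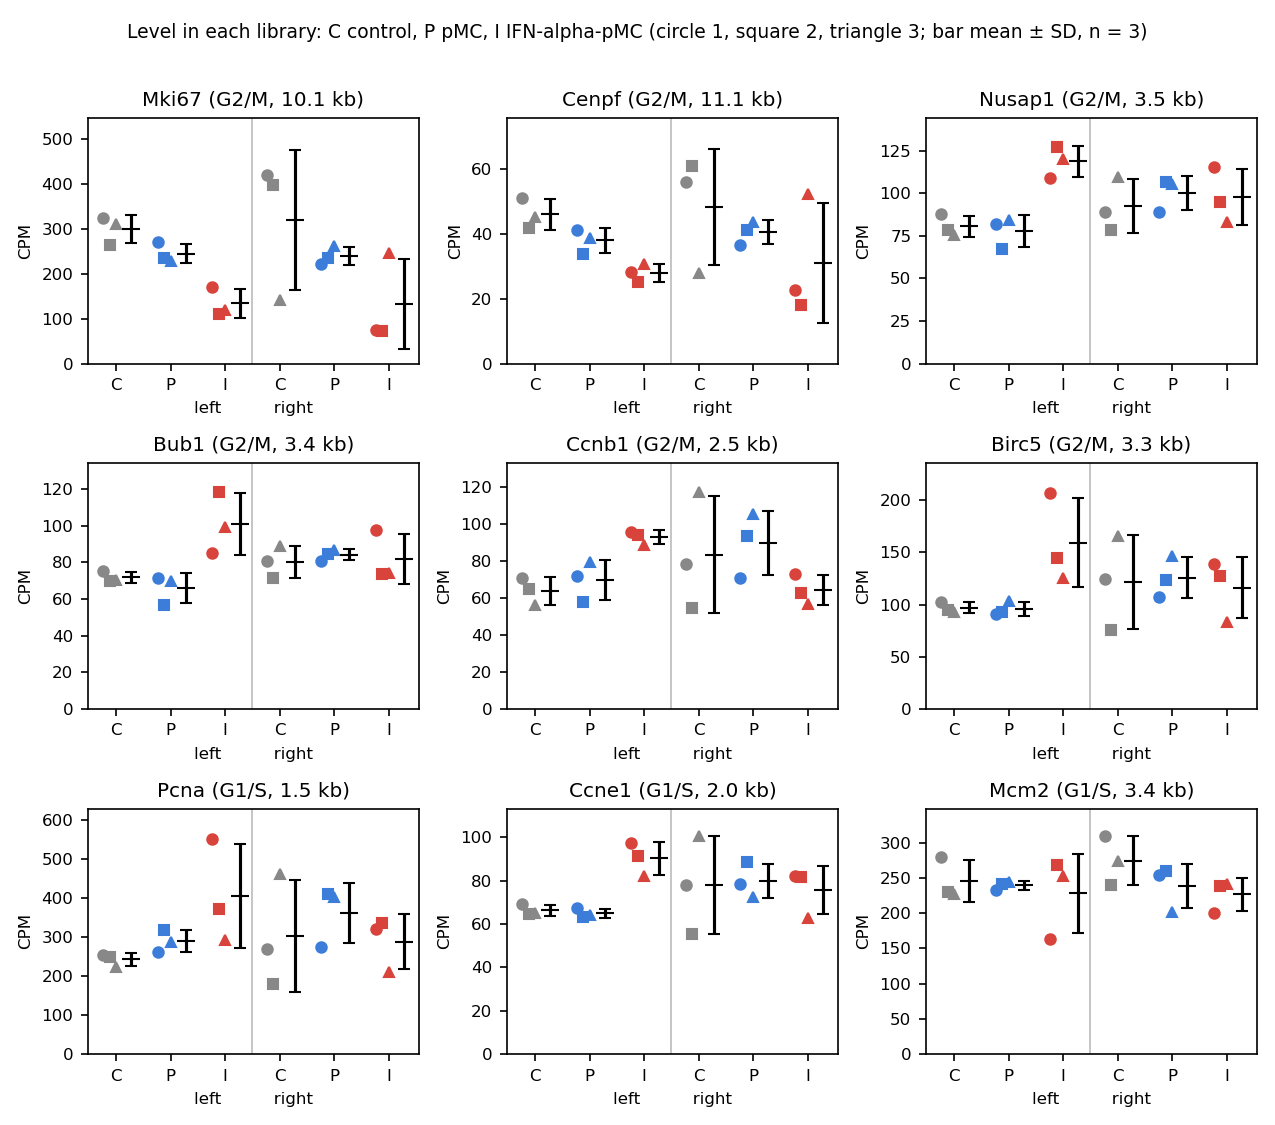
CPM of 9 members in each library (C control, P pMC, I IFN-alpha-pMC; circles, squares and triangles are libraries 1, 2 and 3; bars are the mean ± SD, n = 3), left tumours before right ones in each panel. Mki67 and Cenpf are low in all 3 IFN-alpha-pMC left libraries, Nusap1 and Bub1 are high there, and the third library of control right and of IFN-alpha-pMC right lies away from the other two in the Mki67 and Cenpf panels.

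What did the IFN-alpha-pMC injection leave in the tumour beside which the cells were placed? Against control right, all 19 G1/S members and 24 of the 26 G2/M members had lower estimates in IFN-alpha-pMC right (Bub1 and Nusap1 were the exceptions), and no member passed the threshold. The median log2 fold change was -0.23 for the G1/S members and -0.21 for the G2/M members, against -0.03 over all genes. By comparison, 10.8% of all genes tested passed an adjusted p of 0.05 in edgeR's quasi-likelihood test (8.78% higher and 2.01% lower). Every adjusted p below is from that test with Benjamini-Hochberg adjustment over all genes, unless another is named. At an unadjusted p under 0.05, 5 members were lower, all of them G2/M genes (11.1% of the members, against 10.4% of all genes that were lower by that rule). They were Mki67, Plk1, Kif23, Cenpe and Foxm1. DESeq2 called 1 member lower, Mki67, where it called 4.56% of all genes lower. In edgeR, pMC right had medians of -0.18 (G1/S) and -0.16 (G2/M) against the same control libraries. The members were read in the same libraries, so their directions are not independent.

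Mki67, Cenpe, Foxm1 and Cenpf had the lowest estimates of the set. Mki67 had a log2 fold change of -1.28 ± 0.42 (SE; adjusted p = 0.0603), a level 0.413 times that of control right. Cenpe followed at -0.75 ± 0.32 (adjusted p = 0.161). Its CPM was 61.6, 70.7 and 26.8 in control right and 21, 21.1 and 52.3 in IFN-alpha-pMC right, the same crossing of the third libraries as for Mki67. Cenpf had -0.64 ± 0.32 (adjusted p = 0.23). Foxm1 had -0.68 ± 0.27 (adjusted p = 0.133) and Kif23 -0.58 ± 0.22 (adjusted p = 0.101). Plk1 had -0.52 ± 0.24 (adjusted p = 0.185).

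The cyclins and Cdk1 were closer to the control. Ccnb1, the main mitotic cyclin, had -0.38 ± 0.23 (adjusted p = 0.333), with 78.3, 54.7 and 117 CPM in control right and 72.9, 62.5 and 56.9 in IFN-alpha-pMC right. All 3 of the latter lay within the control range. Cdk1 had -0.20 ± 0.28 (adjusted p = 0.742) and Ccne1 -0.05 ± 0.18 (adjusted p = 0.919). Among replication genes, the 10 licensing and helicase members had fold changes from -0.37 to -0.08, with Mcm2 at -0.28 ± 0.18 (adjusted p = 0.392). Pcna had -0.07 ± 0.30 (adjusted p = 0.925), and Top2a -0.37 ± 0.19 (adjusted p = 0.262). The groups did not overlap for 2 members, Mcm10, an origin-firing factor, and Rrm1, both lower (4.44% of the members, against 5.31% of all genes).

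These right-side values depended on the 3 libraries and on the length trend. Over all genes, the Spearman correlation of the right fold change with transcript length was -0.213 with all libraries. It was -0.473 without the 3 libraries and 0.056 with the length and GC correction. Over the members it was -0.404, -0.510 and 0.124 in the same order. The fit without the 3 libraries and without the correction thus held the stronger length trend. With the length and GC correction, 6 members were lower, namely Rrm2 (-0.40 ± 0.10, adjusted p = 0.0125), Mki67 (-0.95 ± 0.26, adjusted p = 0.0188), Ccnb1 (-0.58 ± 0.17, adjusted p = 0.0229), Ccnb2 (-0.39 ± 0.11, adjusted p = 0.0229), Kif23 (-0.66 ± 0.21, adjusted p = 0.0377) and Foxm1 (-0.44 ± 0.14, adjusted p = 0.041). In that fit 5.55% of all genes were lower. The corrected medians were -0.25 for G1/S and -0.34 for G2/M, against -0.05 over all genes. Leaving out the 3 libraries, 22 members were lower and 2 were higher, Pcna and Ccne2, where 26.1% of all genes were lower and 28.4% higher. Mki67 then had -2.51 ± 0.13 (adjusted p = 1.47e-08), Cenpe -1.70 ± 0.12 (adjusted p = 5.95e-08) and Pcna 0.50 ± 0.20 (adjusted p = 0.0478). With both steps, 22 members were lower and 1 higher, Gins2, against 21.7% and 21.5% of all genes. Mki67 stood at -1.59 ± 0.11 (adjusted p = 8.70e-07) there, and Pcna at -0.22 ± 0.17 (adjusted p = 0.303). With control right 3 alone left out, 7 members were lower, and 26.1% of all genes were called in either direction. With IFN-alpha-pMC right 3 alone left out, 8 were lower, and 20.7% of all genes were called in either direction. The summed T cell, leukocyte and muscle markers of IFN-alpha-pMC right lay above those of control right in every library.

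In the distant, left tumour, members had estimates in both directions, at shares near those of all genes. Against control left, IFN-alpha-pMC left had 12 members whose 3 libraries all lay above the controls (26.7%, against 25.8% of all genes) and 9 whose libraries all lay below (20%, against 23.9%). The member past the threshold was Nusap1, which was higher, where 6.65% of all genes passed (4.05% higher and 2.6% lower). Its CPM was 109, 127 and 120 in IFN-alpha-pMC left, 87.6, 78.1 and 75.7 in control left, and 82.1, 67.3 and 84.5 in pMC left. No library of the first group overlapped the others, and the log2 fold change was 0.56 ± 0.16 (adjusted p = 0.0489), a level 1.48 times that of the control. The call depended on single libraries. Leaving out each of the 18 libraries in turn gave an adjusted p of 0.0155 to 0.155 and estimates of 0.48 to 0.60, and the call was lost in 14 of these fits. It was also lost with the length and GC correction (0.29 ± 0.11, adjusted p = 0.128) and with the muscle covariate (0.525, adjusted p = 0.189). Without the 3 libraries it was kept (0.60 ± 0.12, adjusted p = 0.00248). Exons of Nusap1 overlap those of Oip5 on the other strand. The strand setting of the counting was not stated in the sources used here. Oip5 had 0.83 ± 0.24 (adjusted p = 0.0471) in the same comparison.

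All 6 members of the cyclin and Cdk1 list and all 3 of the cytokinesis and passenger complex list had higher estimates without passing the threshold (medians 0.51 and 0.51, against 0.07 over all genes), while 4 of the 7 mitotic kinase, checkpoint and Cdc20 members had higher estimates and 3 had lower ones (median 0.10). Birc5 had 0.72 ± 0.26 (adjusted p = 0.0738), with 207, 145 and 126 CPM in IFN-alpha-pMC left and 103, 94.9 and 93 in control left. Bub1, a spindle checkpoint kinase, had 0.49 ± 0.16 (adjusted p = 0.0606). Ect2, which sets the cleavage furrow, had 0.51 ± 0.19 (adjusted p = 0.0776). Ccnb1 had 0.54 ± 0.23 (adjusted p = 0.106), Ccnb2 0.48 ± 0.19 (adjusted p = 0.0942), Cdk1 0.56 ± 0.28 (adjusted p = 0.151), Ccne1 0.44 ± 0.18 (adjusted p = 0.0987) and Pcna 0.74 ± 0.30 (adjusted p = 0.0982). For Pcna, Ccne2, Tyms, Gins2 and Cenpa, a single library, IFN-alpha-pMC left 1, was far above the other two. Pcna read 553, 373 and 293 CPM, and Ccne2 135, 56.2 and 45.4 CPM, against 36.6 to 38.2 in control left. Ccne2 had 1.08 ± 0.45 (adjusted p = 0.104).

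Mki67, Cenpe and Cenpf, which have the longest transcripts of the set, lay on the lower side, also without a call. Mki67 had -1.16 ± 0.42 (adjusted p = 0.0742), 0.447 times the control. Cenpe had -0.82 ± 0.33 (adjusted p = 0.0936), with 33.5, 29.5 and 28.3 CPM in IFN-alpha-pMC left and 53.6, 49.7 and 57.9 in control left. Cenpf had -0.72 ± 0.32 (adjusted p = 0.12) and Foxm1 -0.63 ± 0.27 (adjusted p = 0.113). Mcm2 (-0.11 ± 0.18, adjusted p = 0.674) and Top2a (0.03 ± 0.19, adjusted p = 0.927) lay near the control. In all, 17 members had an unadjusted p under 0.05, 10 higher and 7 lower (37.8%, against 36.1% of all genes). The lower ones also held Cdt1, Plk1 and Kif23, with shorter transcripts of 2189, 2199 and 3398 bases. DESeq2 called 5 members, 4 of them higher, where it called 19.3% of all genes.

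**Figure D3:**
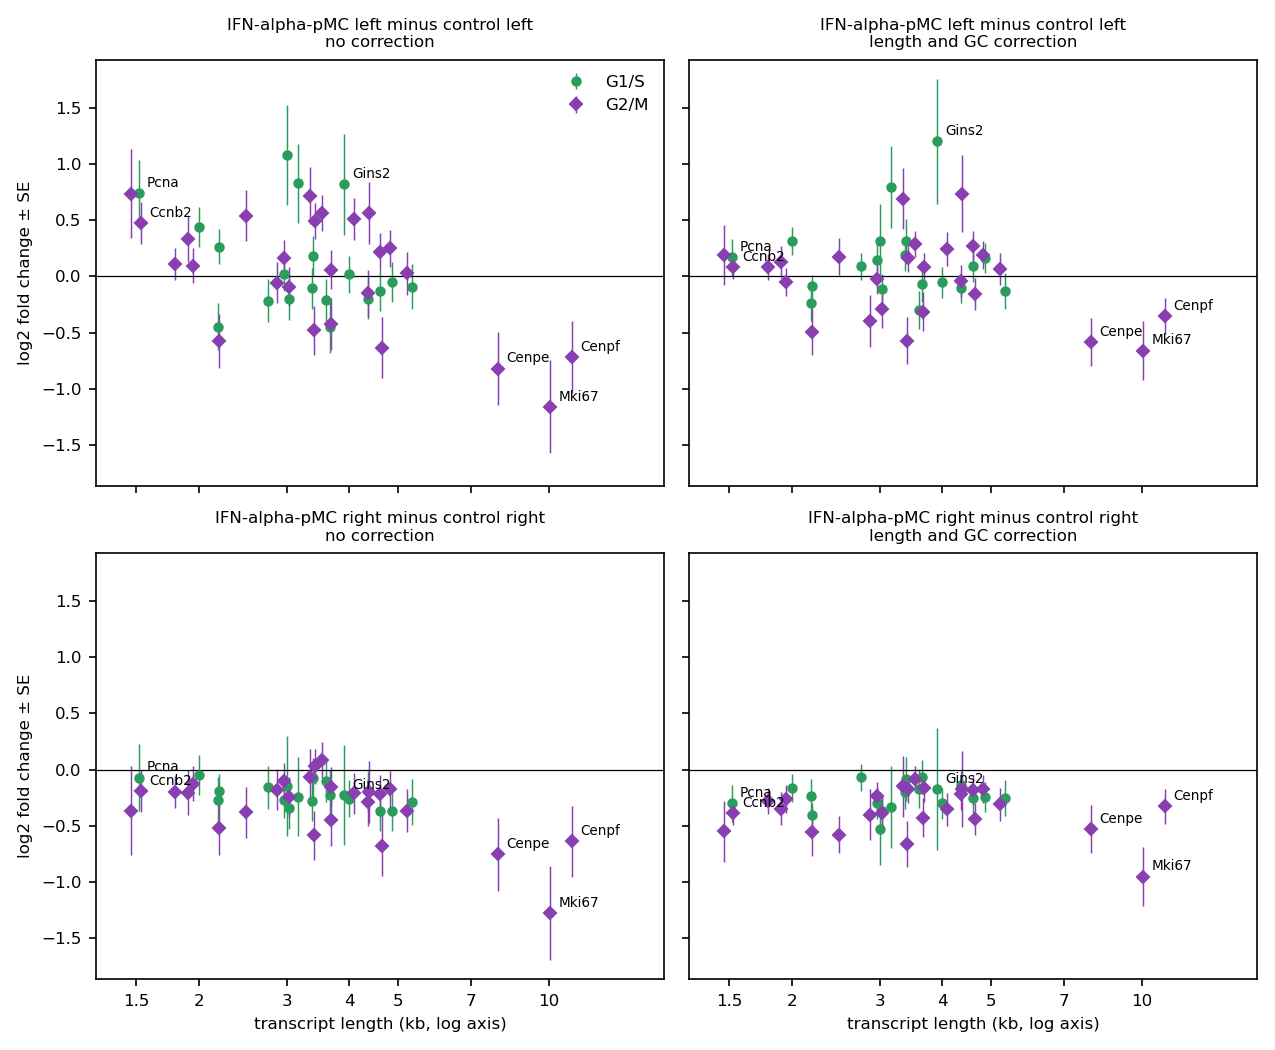
Log2 fold change ± SE of each member in IFN-alpha-pMC against control (upper row left tumours, lower row right tumours) against transcript length in kb on a log axis, without correction and with the length and GC correction. Mki67, Cenpe and Cenpf at the long end have the lowest uncorrected values on the left and, with Foxm1, on the right, and on the left the short members Pcna and Ccnb2 move from 0.74 and 0.48 to 0.17 and 0.09 after correction.

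The plot of fold change against length shows the estimates by transcript length. Over the 45 members, the Spearman correlation of the left fold change with length was -0.38, and over all genes it was -0.44. After the correction it was -0.16 for the members. No member was called in the corrected left comparison, where 4.57% of all genes were. Pcna moved to 0.17 ± 0.16 (adjusted p = 0.502), Mki67 to -0.66 ± 0.26 (adjusted p = 0.127) and Cenpe to -0.58 ± 0.21 (adjusted p = 0.11). The medians were -0.05 for G1/S and 0.10 for G2/M before, and 0.09 and 0.07 after. Leaving out the 3 libraries without the correction gave 10 higher and 5 lower members, against 13% and 15.8% of all genes. With both steps 1 member was higher, Anln, a furrow scaffold, and 4 were lower, namely Mki67 (-0.99 ± 0.10, adjusted p = 8.45e-05), Cenpe (-0.74 ± 0.07, adjusted p = 8.38e-05), Kif23 (-0.52 ± 0.11, adjusted p = 0.00445) and Cenpf (-0.41 ± 0.11, adjusted p = 0.017). In that fit 9.46% of all genes were higher and 10.8% lower.

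Next, IFN-alpha-pMC was set against pMC, which asks what the IFN-α cells added to the cells alone. These comparisons share the IFN-alpha-pMC libraries with the ones above, so they are not independent of them. On the right, no member was called, where 10.1% of all genes were. The medians were -0.07 for G1/S and -0.15 for G2/M, against -0.04 over all genes. Lower estimates were found for 13 of the 19 G1/S and 21 of the 26 G2/M members. A single member, against 6.11% of all genes that were lower, had an unadjusted p under 0.05, Ccnb1, at -0.49 ± 0.23 (adjusted p = 0.233). Its CPM was 71, 93.4 and 105 in pMC right and 72.9, 62.5 and 56.9 in IFN-alpha-pMC right, groups that overlapped. Mki67 had -0.86 ± 0.41 (adjusted p = 0.256) and Mcm7 -0.30 ± 0.15 (adjusted p = 0.302). Top2a (-0.28 ± 0.19, adjusted p = 0.48), Cdk1 (-0.27 ± 0.28, adjusted p = 0.656), Ccne1 (-0.08 ± 0.18, adjusted p = 0.859), Mcm2 (-0.07 ± 0.18, adjusted p = 0.874) and Pcna (-0.33 ± 0.30, adjusted p = 0.617) were also uncalled. The length and GC correction called 3 members lower, where 7% of all genes were lower. They were Mki67 (-0.80 ± 0.26, adjusted p = 0.0422), Ccnb1 (-0.60 ± 0.17, adjusted p = 0.0178) and Ccnb2 (-0.38 ± 0.11, adjusted p = 0.0228). With the 3 libraries left out, 8 members were lower, all G2/M genes, against 16.1% of all genes, and with both steps 15, against 19.4%. Leaving out IFN-alpha-pMC right 3 alone gave 3, where 12.6% of all genes were called in either direction.

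On the left, Bub1 and Nusap1 were higher in IFN-alpha-pMC than in pMC, where 3.85% of all genes passed (2.71% higher). Bub1 read 84.8, 119 and 99.1 CPM in IFN-alpha-pMC left, 71.4, 56.4 and 69.7 in pMC left and 75.2, 69.7 and 70.3 in control left. The first group lay above both others without overlap. Its log2 fold change against pMC was 0.615 ± 0.16 (adjusted p = 0.0426), and that of Nusap1 was 0.61 ± 0.16 (adjusted p = 0.0469). Leaving out 1 library ended the Bub1 call for 11 of 18 libraries and the Nusap1 call for 12 of 18. The correction gave 0.27 ± 0.12 for Bub1 (adjusted p = 0.197) and 0.32 ± 0.12 for Nusap1 (adjusted p = 0.127). With the muscle covariate neither was called, where 0.444% of all genes were. Ect2 (0.54 ± 0.19, adjusted p = 0.0818) and Birc5 (0.73 ± 0.26, adjusted p = 0.0851) came next. Mki67 had -0.87 ± 0.41 (adjusted p = 0.167), Ccnb1 0.41 ± 0.23 (adjusted p = 0.224), Cdk1 0.37 ± 0.28 (adjusted p = 0.371), Ccne1 0.48 ± 0.18 (adjusted p = 0.1), Pcna 0.49 ± 0.30 (adjusted p = 0.275), Mcm2 -0.07 ± 0.18 (adjusted p = 0.806) and Top2a 0.08 ± 0.19 (adjusted p = 0.786). With the 3 libraries left out, 11 members were higher and 4 lower, against 12.7% and 14.9% of all genes.

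The pMC cells alone left no called member on either side, and no gene of the 14849 was called in these comparisons (0% of all genes). Against control right, pMC right had medians of -0.18 (G1/S) and -0.16 (G2/M). Cdc6 (-0.30 ± 0.18), Mcm3 (-0.30 ± 0.19) and Ccna2, the cyclin of S phase and G2 (-0.26 ± 0.16), had the smallest p, each with an adjusted p of 0.945. Mki67 had -0.42 ± 0.41 and Pcna 0.26 ± 0.30, also at 0.945. DESeq2 called 0 members, and none had an unadjusted p under 0.05 in edgeR (2.42% of all genes did). Without the 3 libraries, 6 members were higher and 14 lower, against 19.5% and 14.2% of all genes. Leaving out control right 3 alone gave 0 (0.00661% of all genes). On the left, Ccne2 (0.50 ± 0.44), Mcm10 (-0.18 ± 0.17) and Gins2 (0.44 ± 0.45) had the smallest p, each at an adjusted p of 1 in edgeR, and no member had an unadjusted p under 0.05 (0.801% of all genes did).

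Right and left tumours of 1 treatment gave the background of the side itself. In control mice, all 19 G1/S members had higher estimates on the right, with a median of 0.18, and the G2/M median was 0.16. No member or other gene was called (0% of all genes), and Rrm2 (0.27 ± 0.15), Ccnb1 (0.39 ± 0.23) and Cdc20 (0.23 ± 0.14) had the smallest p, each at an adjusted p of 1 in edgeR. In pMC mice, 0 members were called (0% of all genes), and Nusap1 (0.36 ± 0.16) and Bub1 (0.35 ± 0.16) had an unadjusted p of 0.0387 and 0.0397 in edgeR (adjusted p = 0.95), where 2.09% of all genes had an unadjusted p under 0.05. The right-side levels of Nusap1 in pMC mice, 88.8, 106 and 105 CPM, lay between those of pMC left and IFN-alpha-pMC left. In IFN-alpha-pMC mice, no member was called, where 2.53% of all genes were. Ect2 (-0.45 ± 0.19, adjusted p = 0.329), Ccnb2 (-0.45 ± 0.19, adjusted p = 0.338) and Ccnb1 (-0.53 ± 0.23, adjusted p = 0.351) were lower on the right at an unadjusted p under 0.05, as were 3.29% of all genes. Mki67 had -0.02 ± 0.41 (adjusted p = 0.987), with estimates from -0.88 without IFN-alpha-pMC right 3 to 0.27 without IFN-alpha-pMC right 2. Fits without the 3 libraries called 9 G2/M members lower on the right, against 2.88% of all genes, and gave Mki67 -0.67 ± 0.12 (adjusted p = 0.00828). The others were Top2a, Bub1b, Kif11, Kif20a, Kif23, Cenpe, Foxm1 and Anln. With the correction as well, 2 were lower, Kif20a and Kif23, against 0.739% of all genes, and Mki67 had -0.35 ± 0.11 (adjusted p = 0.0995).

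Whether the effect of IFN-alpha-pMC against control differed between sides was tested as the right effect minus the left effect. No member was called and no gene was (0% of all genes). The G1/S and G2/M medians were -0.26 and -0.29. Ccnb1 had the smallest p, with a difference of -0.92 ± 0.32 (unadjusted p = 0.0106, adjusted p = 0.497 in edgeR). Ect2 (-0.72 ± 0.26, adjusted p = 0.537) and Ccnb2 (-0.67 ± 0.27, adjusted p = 0.668) followed. Pcna had -0.81 ± 0.42, Cdk1 -0.77 ± 0.39, Ccne1 -0.49 ± 0.25 and Top2a -0.39 ± 0.27 (adjusted p = 0.743 each), Mcm2 -0.17 ± 0.26 (adjusted p = 0.856) and Mki67 -0.12 ± 0.58 (adjusted p = 0.96). In all, 5 members had an unadjusted p under 0.05, all with lower differences (11.1%, against 1.73% of all genes), and the others were Birc5 and Tyms. Fits without the 3 libraries called 12 members, all with lower differences (against 3.24% of all genes), with Mki67 at -1.12 ± 0.17 (adjusted p = 0.00964). The 12 were Pola1, Mki67, Top2a, Bub1b, Kif11, Kif20a, Kif23, Cenpe, Cenpf, Tpx2, Foxm1 and Anln. They did not include any of the 5 above, and the estimate of Tyms turned positive. Over the members, the Spearman correlation of the difference with transcript length was 0.289 with all libraries and -0.675 without the 3. With the correction as well, 0 members were called, and Mki67 had -0.61 ± 0.15 (adjusted p = 0.0779).

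The balance of the 2 waves was compared by the mean log2 CPM of the 26 G2/M members minus that of the 19 G1/S members, a difference of levels that is not per length. It was 0.24 ± 0.16 (SD, n = 3) in control right, 0.25 ± 0.05 in control left, 0.19 ± 0.12 in pMC right, 0.19 ± 0.12 in pMC left, 0.11 ± 0.21 in IFN-alpha-pMC right and 0.18 ± 0.07 in IFN-alpha-pMC left. The order of the groups is within their spread, since the libraries of IFN-alpha-pMC right ran from -0.11 to 0.30 and those of control right from 0.06 to 0.38. The G2/M mean alone was 6.21 ± 0.14 in IFN-alpha-pMC right and 6.52 ± 0.17 in control right, with no overlap (6.07 to 6.35 against 6.39 to 6.71). The G1/S mean was 6.10 ± 0.08 and 6.28 ± 0.23 there, and it overlapped. The G2/M means of IFN-alpha-pMC right also lay under those of pMC right (6.39 to 6.46). They overlapped those of control left (6.33 to 6.55), pMC left (6.26 to 6.40) and IFN-alpha-pMC left (6.295 to 6.499). All these means are without the length and GC correction.

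**Figure D4:**
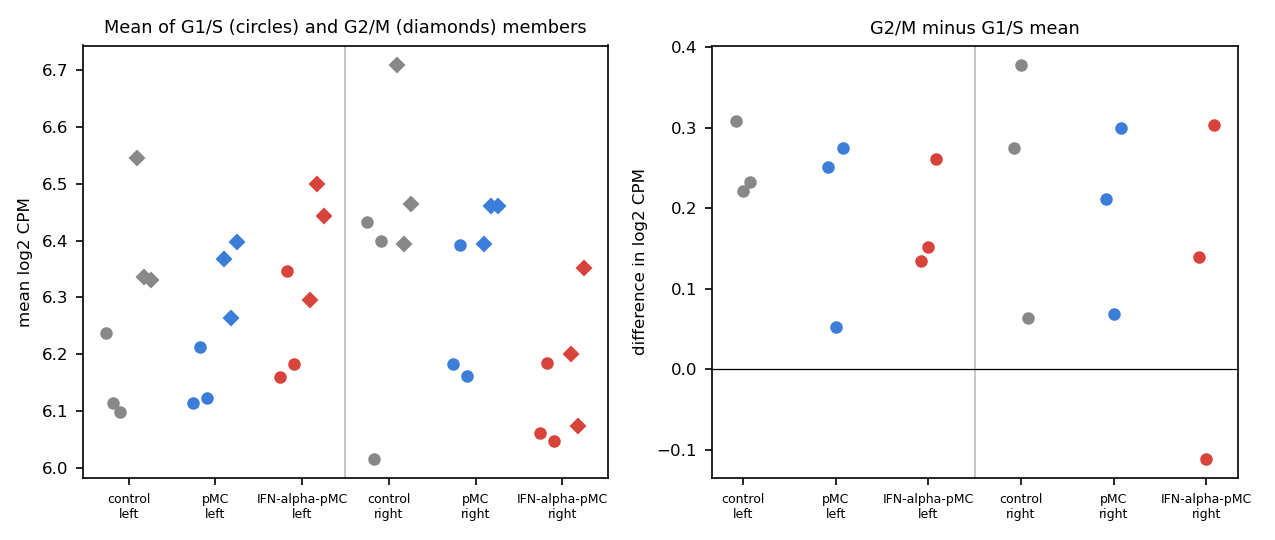
Mean log2 CPM of the 19 G1/S members (circles) and the 26 G2/M members (diamonds) in each library by group, and the G2/M mean minus the G1/S mean in each library. The G2/M means of IFN-alpha-pMC right (6.07 to 6.35) lie under those of control right (6.39 to 6.71) and overlap those of all left groups. The difference between phases overlaps between all groups.

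Genes of the same pathways outside the 45 were read from lists. Of 30 other replication genes, all tested, 0 were called in any of the 10 comparisons. Of 39 other mitosis genes, 1 was called, Sgo1, which guards centromeric cohesion. It was higher in IFN-alpha-pMC left than in control left (0.65 ± 0.18, adjusted p = 0.0454) and than in pMC left (0.73 ± 0.18, adjusted p = 0.0378). Of 13 cyclin D, Cdk and E2F genes, 0 were called. Over the same comparisons the share of all genes called ran from 0% to 10.8%. Of 14 listed brakes of the cycle, 13 were matched and 10 tested (Cdkn1c, Cdkn2a and Cdkn2b did not pass the filter, and Cdkn2d was not matched), and 3 were higher in IFN-alpha-pMC right than in control right, where 8.78% of all genes were higher. Btg1, an antiproliferative gene of the BTG family, read 59, 57 and 48.7 CPM against 13.9, 19.6 and 27.1 (1.44 ± 0.21, adjusted p = 0.00016). Btg2, its relative, read 11.8, 18.3 and 16.9 CPM against 6.26, 4.06 and 5.19 (1.59 ± 0.26, adjusted p = 0.000459). Cdkn1a, which encodes the Cdk inhibitor p21 and was named after its values were seen, read 140, 135 and 128 CPM against 77, 55.3 and 61.5 (1.06 ± 0.21, adjusted p = 0.00292). No library of these groups overlapped for the 3 genes, and the length and GC correction kept all 3 (adjusted p 0.000158 to 0.00165). Of the 10 brakes tested, 7 had higher estimates and 3 had lower ones, down to -0.37. By the unadjusted p under 0.05 in edgeR, 1 was lower, as were 10.4% of all genes.

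The same 3 brakes were higher in IFN-alpha-pMC right than in pMC right, where 8.88% of all genes were higher. The estimates were 1.51 ± 0.21 for Btg1 (adjusted p = 0.000116), 1.87 ± 0.26 for Btg2 (adjusted p = 0.000128) and 1.14 ± 0.21 for Cdkn1a (adjusted p = 0.00169). Of the 10 brakes tested, 6 had higher estimates there and 4 had lower ones, down to -0.43. By the unadjusted p under 0.05 in edgeR, 1 was lower, as were 6.11% of all genes. Between sides in IFN-alpha-pMC mice, Btg1 (0.93 ± 0.20, adjusted p = 0.0203) and Btg2 (1.24 ± 0.26, adjusted p = 0.0133) were higher on the right, as were 2.49% of all genes. On the left, Rbl1, a relative of the retinoblastoma gene, was the brake called higher in IFN-alpha-pMC than in control, where 4.05% of all genes were higher (0.56 ± 0.16, adjusted p = 0.0472), and with the correction its adjusted p was 0.0532. Lymphocytes also express Btg1 and Btg2, and T cell and leukocyte markers were highest in IFN-alpha-pMC right. The part of those cells in these values was not tested.

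Some members share sequence or position with other genes. Ccnb1, Ccnb2 and Pcna have pseudogenes among the counted IDs, so reads could be split or set aside as multiply aligned. Ccna2, Ccne2, Cdc20, Foxm1, Gins2, Kif20a, Mcm7 and Prc1 share exon positions with a protein-coding neighbour, and values of these genes carry that uncertainty.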

How the data were processed

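RNA from 18 tumour samples was measured with stranded mRNA libraries, 3 per group in 6 groups taken from the sample titles. The deposited values are raw, unnormalized counts for each Ensembl gene ID, and their 5 summary rows were left out (60.2 to 70.7% of read pairs were assigned to genes). The submitters' processing notes name build mm9, HISAT2 2.1.0, HTSeq 0.10.0, DESeq2 1.20.0, Trimmomatic 0.36, and FastQC, CASAVA 1.8.2 and bcl2fastq. The annotation and the strand setting of the counter are not stated in the sources used here. Counts were tested with the quasi-likelihood test of edgeR 4.0.16 in R 4.3.3 (trimmed-mean scaling, filterByExpr, 1 mean per group, 12 residual degrees of freedom, two-sided, Benjamini-Hochberg over 14849 genes, threshold 0.05). On counts simulated for IFN-alpha-pMC left against control left, that test called 3.03% of genes given an absolute log2 fold change of 0.5. It called 49.25% at 1, 98.51% at 2 and 0.03457% of unchanged genes. A member that was not called is therefore not shown to be unchanged. Those simulated counts held no trend with transcript length, unlike the libraries, so the shares do not cover that trend. The SE is the log2 fold change divided by the square root of F. DESeq2 was version 1.42.0 here. Symbols, lengths and GC content came from GENCODE M21 (another build, so no coordinates of the count files are given), and length was known for 96.9% of the genes tested. The correction used natural splines of length and GC (4 degrees of freedom) as offsets. Named in every comparison were Mki67, Top2a, Ccnb1, Cdk1, Ccne1, Mcm2 and Pcna, every called member, where fewer than 3 were called the 3 of smallest p, and from other lists the 2 called genes of smallest p in each direction. Other names were chosen after their values were seen. The members, lists and tests were chosen with earlier results of these data known. Alternatives were other scalings, filters and tools, fits of the compared groups only, replicate blocks, a muscle covariate, the correction, and leaving out libraries.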

Additional observations from a re-analysis of the deposited data

How the results depend on the processing

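Of 189 counts of called members under an alternative, 140 stayed within 1.5 times the first count, and of 2110 fold changes of named members 1934 kept direction and side of the threshold. The counts that moved, over IFN-alpha-pMC against control right and left and against pMC right and left, began at 0, 1, 0 and 2. Shares of all genes called in either direction follow in brackets in the same order, and began at 10.8%, 6.65%, 10.1% and 3.85%. The counts were 1, 5, 0 and 6 with DESeq2 (14.3%, 20.5%, 12.3% and 14.7% of genes with an adjusted p). They were 6, 0, 3 and 0 with the length and GC correction (16.6%, 4.57%, 18.3% and 3.08%). Without a filter they were 1, 0, 0 and 0 (7.06%, 5.19%, 6.75% and 3.2%). With library totals they were 0 in all 4 (9.8%, 3.54%, 10% and 1.98%). The muscle covariate (6.25%, 0.768%, 4.96% and 0.444%) and the replicate block (9.66%, 3.12%, 9.58% and 2.36%) also gave 0 in all 4. With the replicate block and the correction together the counts were 4, 0, 2 and 0 (14.6%, 4%, 16.8% and 2.91%). Fits of the compared groups alone gave 0, 10, 0 and 7 (4.04%, 22%, 9.89% and 18%). Without the 3 libraries the counts were 24, 15, 8 and 15 (54.4%, 28.8%, 28.5% and 27.6%). With the correction as well (added after seeing the data) they were 23, 5, 15 and 9 (43.2%, 20.2%, 33.6% and 21.6%). Leaving out each library of the compared groups gave 0 to 8, 0 to 0, 0 to 3 and 0 to 2. The shares then were 7.25% to 26.1%, 0.569% to 3.26%, 6.79% to 12.6% and 0.219% to 2.74%. Starting from 0, pMC right against control right gave 20 without the 3 libraries (33.7%) and 11 with the correction as well (15.6%). In the same order, right against left in IFN-alpha-pMC mice gave 9 (5.75%) and 2 (2.85%), and the difference between sides 12 (5.07%) and 0 (0.526%). The cause of these shifts was not tested. Every member had at least 113 counts in each library, and how far depth limited the calls was not tested.

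Signs of log2 fold changes that reversed are given by comparison. In IFN-alpha-pMC right against control right, without the 3 libraries, Cdk1 was 0.338, Ccne1 0.247, Pcna 0.497 (past the threshold) and Ccnb2 0.088, and with the correction as well Cdk1 was 0.552. Leaving out 1 library gave -0.540 to 0.216 for Cdk1, -0.287 to 0.178 for Ccne1, -0.391 to 0.36 for Pcna and -0.437 to 0.030 for Ccnb2, lowest without control right 2 and highest without control right 3. Bub1 was -0.174 with the correction, -0.173 with the block as well and -0.251 with the correction without the 3 libraries, and Nusap1 was -0.082 with the correction. On the left, with the correction, with the block as well, and with the correction without the 3 libraries, Mcm2 was 0.189, 0.185 and 0.288 against control and 0.176, 0.173 and 0.276 against pMC, and Pcna was -0.014, -0.017 and -0.174 against pMC. Ccne2 on the left against control was -0.187 under the last of these. In pMC right against control right, leaving out control right 2 and then control right 3 gave -0.163 and 0.435 for Ccnb1, -0.258 and 0.492 for Cdk1, -0.204 and 0.259 for Ccne1 and -0.055 and 0.689 for Pcna, and Mcm2 was 0.046 with the correction without the 3 libraries. In control right against left, Cdk1 was -0.076 and Pcna -0.112 without the 3 libraries, and Cdk1 was -0.129 with the correction as well. Leaving out 1 library there gave -0.076 to 0.633 for Cdk1 and -0.111 to 0.591 for Pcna. With the correction without the 3 libraries, Cdk1 was 0.041 between sides in IFN-alpha-pMC mice and 0.170 in the difference between sides, where Tyms was 0.080. In that difference, without the 3 libraries, Pcna was 0.059 and Tyms 0.063.

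Right and left samples share the numbers 1 to 3, but the labels do not tie a number to a mouse. Deviations of same-numbered samples correlated at 0.60, 0.12 and -0.02 in control, 0.10, 0.01 and 0.13 in pMC and 0.30, -0.25 and 0.44 in IFN-alpha-pMC, so the numbers were not taken as pairs. The replicate block gave each number 1 effect shared by all treatments, so it does not pair tumours of a mouse. It called 0 members in each of the 4 comparisons. Fits with a block for each treatment and number also called 0 members between sides. In those fits, the shares of all genes called were 0% in control, 0% in pMC and 3.09% in IFN-alpha-pMC mice.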
